A study of Mus musculus with 8 samples.

Results

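The 4 arrays described here hold the wildtype baseline of a CD31-sorted kidney fraction: total RNA from CD31+ cells that were drawn from kidneys of adult mice with magnetic beads (MACS) and labelled as endothelial cells. They were chosen by their titles, which name them wildtype, and they are 4 of the 8 arrays of the study. The mice carried a mixed C57B6/CD1 strain background and no treatment is given in the labels. Wildtype males supplied arrays 2 and 4, and wildtype females supplied arrays 1 and 3. The other arrays hold the same fraction from Crim1KST264/KST264 mutants of both sexes and are not used in the results below, except for 1 alternative fit. The labels do not say that each array is a separate animal, so a p-value between the sexes reflects sample-to-sample differences alone, part of which may be technical.

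CD31 is the protein encoded by Pecam1, an adhesion molecule of endothelial junctions that platelets and some leukocytes also carry. Kidney endothelium is divided among fenestrated glomerular capillaries, fenestrated peritubular capillaries wrapped around the tubules, the vasa recta of the medulla, arteries with arterioles, veins and a few lymphatics. Tubule cells lie directly against the peritubular capillaries, and each nephron segment is known by its own apical carriers and channels. In bulk RNA, fewer cells of a type and less RNA per cell cannot be told apart, and this holds for every list below.

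Each array carried 45281 probes, and the deposited signals are non-normalized intensities on a linear scale. The median signal was 98.5 on male 2, 93.9 on male 4, 94.1 on female 1 and 94.2 on female 3, and 46.5 to 47.9% of probes had a detection p under 0.05. Percentiles were taken within each array, as the share of all probes at or below a probe's signal. A gene was represented by its brightest probe, called detected where that probe's detection p was under 0.05 on all 4 arrays, bright where it reached percentile 95 on all 4, and not detected on any array where no probe of the gene had a p under 0.05 on any. Probes differ in affinity, so percentiles describe how bright a probe is and do not order genes by amount of RNA. Of 19057 named genes, 10454 were detected (54.9%), 1402 were bright (7.36%) and 6334 were not detected on any array (33.2%). These shares are the background for each list below. Log2 signals correlated across probes, which are not independent replicates, at 0.989 between the males, 0.992 between the females, and 0.982 to 0.983 between arrays of different sex.

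The fraction was bright for endothelial genes and for genes of the nephron. Pecam1, the gene of the sorting antigen, had signals of 3759.5 on male 2 and 4281.7 on male 4, against 2131.3 on female 1 and 2076.0 on female 3, which lay at percentiles 95.6 and 96.6 in males and 93.0 and 93.2 in females. Emcn, an endothelial sialomucin, had 24325.5 and 28174.7 in males and 13635.9 and 14862.1 in females, all at percentile 98.9 or higher. Egfl7, a secreted endothelial matrix protein, had 21870.2 and 24902.6 in males and 9123.3 and 10336.6 in females. For each of these genes both male signals lay above both female signals.

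Cdh5, the junction protein VE-cadherin, had 1888.9 and 2175.9 in males and 996.6 and 1068.0 in females, at percentiles 87.2 to 93.7. Umod, the uromodulin gene of the thick ascending limb, had signals of 39892.0 and 39852.0 in males and 44385.8 and 34085.8 in females. Slc34a1, the apical phosphate carrier of the proximal tubule, had 36403.7 and 36187.8 in males and 43159.8 and 33857.7 in females. The sexes overlapped for both tubule genes, and both lay at a percentile that rounds to 99.9 or above on all 4 arrays. The data therefore go against a reading of the label as endothelial cells alone, and the samples are called the CD31-sorted fraction here. The highest signal on an array was between 47442.3 and 53310.6, so the tubule markers stood near the top of the scale.

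**Figure D1:**
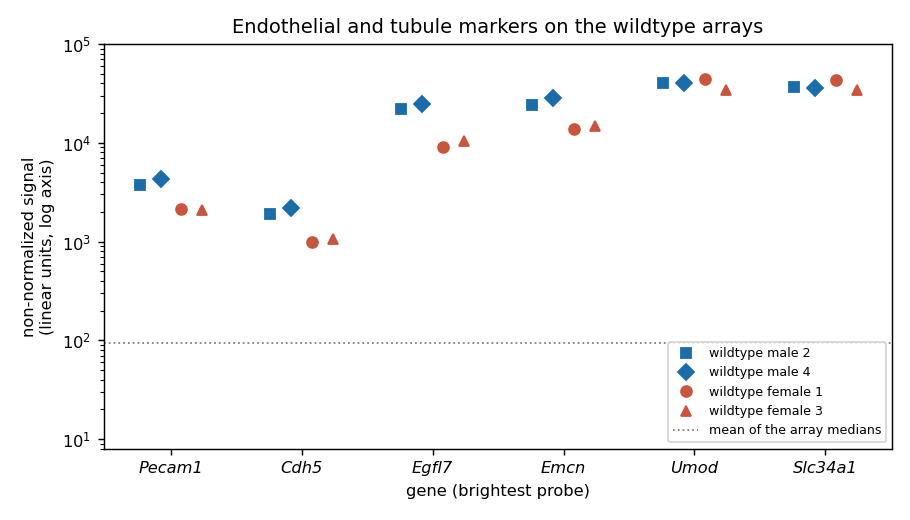
Non-normalized signal (linear units on a log axis) of the brightest probe of 4 endothelial genes and 2 tubule genes, with 1 point per wildtype array, males in blue left of females in red. The male points stand above the female points for Pecam1, Cdh5, Egfl7 and Emcn, and the sexes overlap for Umod and Slc34a1; the dotted line is the mean of the array medians.

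Promoters of the genes that carry this double picture are shown, since endothelial genes are known targets of ETS factors and tubule genes of HNF1 factors. The windows run from 250 bases before to 50 bases after a RefSeq start on GRCm38.p6 and read 5′ to 3′ on the gene's strand. Capitals mark GTTAAT, the core of an HNF1 site, in Umod, Slc34a1 and Hnf4a, and AGGAAGT, an ETS site with A before its core, in Flt1 and Egfl7, each on either strand. Umod lies at chr7:119479213-119479512 on the minus strand, Slc34a1 at chr13:55399398-55399697 on the plus strand, Hnf4a at chr2:163546905-163547204 on the plus strand, Flt1 at chr5:147725962-147726261 on the minus strand, and the Egfl7 window at chr2:26583615-26583914 on the plus strand.
Umod: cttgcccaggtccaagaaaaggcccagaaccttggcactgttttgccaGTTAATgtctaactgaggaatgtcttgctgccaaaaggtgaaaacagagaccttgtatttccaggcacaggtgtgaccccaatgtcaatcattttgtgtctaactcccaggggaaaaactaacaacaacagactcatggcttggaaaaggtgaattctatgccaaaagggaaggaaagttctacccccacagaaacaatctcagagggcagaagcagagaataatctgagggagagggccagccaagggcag
Slc34a1: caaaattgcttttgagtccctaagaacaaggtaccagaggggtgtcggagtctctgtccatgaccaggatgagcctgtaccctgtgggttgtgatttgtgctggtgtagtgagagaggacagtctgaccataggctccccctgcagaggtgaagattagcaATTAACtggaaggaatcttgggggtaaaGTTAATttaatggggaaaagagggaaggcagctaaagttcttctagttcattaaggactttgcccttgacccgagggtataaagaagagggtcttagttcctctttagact
Hnf4a: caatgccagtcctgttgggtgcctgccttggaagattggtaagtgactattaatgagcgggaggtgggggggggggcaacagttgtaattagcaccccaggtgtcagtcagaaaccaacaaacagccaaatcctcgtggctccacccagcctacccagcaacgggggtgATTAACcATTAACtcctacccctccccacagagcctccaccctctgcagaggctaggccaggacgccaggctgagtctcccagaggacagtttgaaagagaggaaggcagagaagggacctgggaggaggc
Flt1: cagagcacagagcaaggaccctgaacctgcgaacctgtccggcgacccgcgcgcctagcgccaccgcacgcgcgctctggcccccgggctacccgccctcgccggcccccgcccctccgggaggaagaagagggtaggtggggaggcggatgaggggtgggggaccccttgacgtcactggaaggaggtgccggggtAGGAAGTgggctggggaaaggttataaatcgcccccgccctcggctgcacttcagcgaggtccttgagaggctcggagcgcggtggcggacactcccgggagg
Egfl7: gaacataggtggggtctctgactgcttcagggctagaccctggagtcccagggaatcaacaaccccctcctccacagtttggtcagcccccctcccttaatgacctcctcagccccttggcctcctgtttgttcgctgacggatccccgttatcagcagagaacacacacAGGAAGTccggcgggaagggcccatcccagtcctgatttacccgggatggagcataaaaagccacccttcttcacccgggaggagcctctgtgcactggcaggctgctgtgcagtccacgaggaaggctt

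GTTAAT occurred in 14 of 95 windows of genes on the nephron lists (14.7%), in 5.95% of windows on the vascular lists, in 6.08% of windows of all named genes on the array and in 7.10% of all 32851 RefSeq windows. AGGAAGT occurred in 12 of 84 windows on the vascular lists (14.3%) and in 6.32% on the nephron lists. Its share was 8.81% for the array's genes and 9.35% of all windows. Among bright genes alone, AGGAAGT occurred in 4 of 14 vascular windows (28.6%) and 4 of 39 nephron windows (10.3%). GTTAAT did so in 1 of 14 (7.14%) and 7 of 39 (17.9%). Vascular lists here were the general endothelial, glomerular endothelial, peritubular capillary, arterial and venous ones. Nephron lists were those from proximal tubule to collecting duct, and 2 genes lay in both sets. In the windows printed, the GTTAAT match of Umod begins 202 bases before the start, those of Slc34a1 89 and 61 bases before it, and those of Hnf4a 81 and 74 bases before it. The AGGAAGT match begins 53 bases before the start in Flt1 and 80 bases before it in Egfl7. A further 4 strings were searched on both strands. The ETS site with C before its core, spelled CGGAAGT, occurred in 1.19% of vascular, 2.11% of nephron, 8.94% of the array's and 6.42% of all windows. The TATA box, spelled TATAAA, occurred in 10.7% of vascular, 12.6% of nephron, 11.8% of the array's and 13.6% of all windows. A site for zinc finger factors of the Gata family, spelled AGATAA, occurred in 9.52% of vascular, 13.7% of nephron, 9.31% of the array's and 11.2% of all windows. The GC box, spelled GGGCGGG, occurred in 41.7% of vascular, 32.6% of nephron, 36.2% of the array's and 25.6% of all windows. The pair of ETS strings share all letters but the first and cannot match at the same place. A match describes the letters of a window only, and the windows shown were chosen because they hold one.

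Of the 34 general endothelial genes, 28 were detected, 9 were bright and 1 was not detected on any array. The list median lay at percentile 93.6 on male 2, 95.02 on male 4, 90.01 on female 1 and 91.9 on female 3. The brightest members after Emcn and Egfl7 were Esam, a junction adhesion molecule, at a mean percentile of 98.8, Flt1, the VEGF receptor 1, at 98.3, and Robo4, an endothelial guidance receptor, at 97.7. Fli1, an ETS factor, ranged most widely among the detected members, with percentiles of 76.4 and 81.1 in males and 68.8 and 71.5 in females. Ecscr, an endothelial surface protein, was the gene not detected on any array. Both male percentiles lay above both female percentiles for 28 of the 34 genes and below for none, where 21.5% and 25.0% of all named genes did so.

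Single probes set some of these calls. Kdr, the main VEGF receptor of endothelium, was detected on male 2 alone, with signals of 106.5 and 92.0 in males and 84.2 and 97.6 in females, and its other probe was detected on no array. Egfl7 had 3 probes, at mean percentiles of 99.0, 94.4 and 64.3. The brightest Flt1 probe stood at 98.3 and the other at 64.2, and Robo4 had 1 probe at 97.7 and 3 between 51.6 and 58.8. Pecam1 itself had probes at 94.6, 91.0 and 58.8. Among 6259 genes with over 1 probe and a detected brightest probe, 2901 had a dimmest probe detected on no array.

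**Figure D2:**
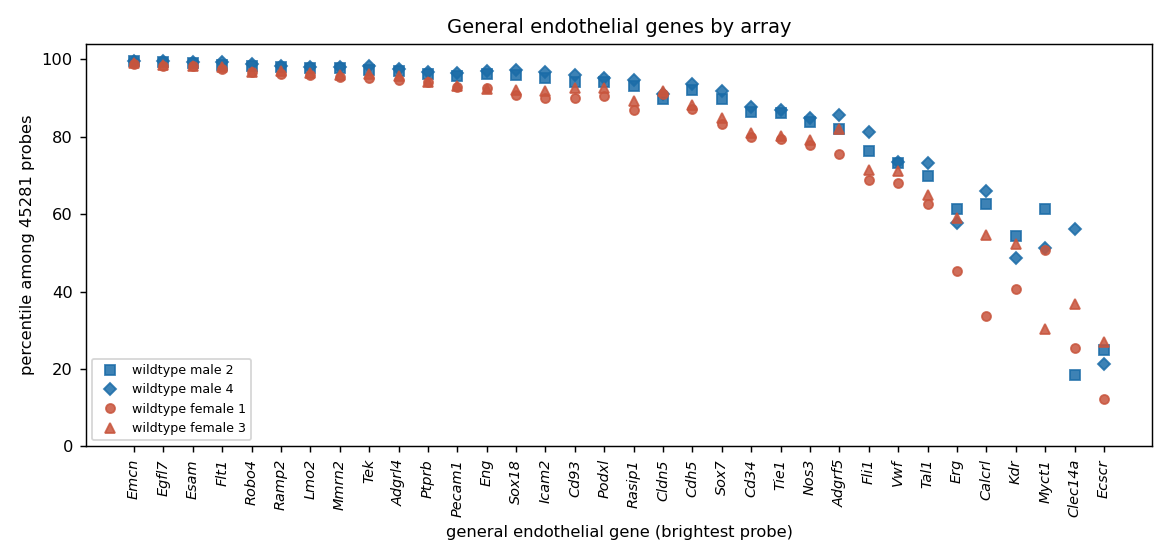
Percentile among all 45281 probes (vertical axis) of the 34 general endothelial genes, ordered by mean percentile, with 1 point per wildtype array (blue for males, red for females). Both male points lie above both female points for 28 of the 34 genes, and Kdr, Myct1, Clec14a and Ecscr lie among probes near or below the detection limit.

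Nephron lists also lay high on every array. Of 27 proximal tubule genes measured, 25 were detected and 17 were bright, with list medians of 97.5 and 97.0 on the male arrays and 97.5 and 97.7 on the female arrays. Keg1, a kidney-enriched acyltransferase-family gene, Slc27a2, a fatty acid carrier and acyl-CoA synthetase, Slc34a1, Miox, the first enzyme of inositol breakdown, and Napsa, an aspartic protease, led at mean percentiles of 99.7 to 99.9. Slc22a30, an organic anion carrier, varied most, with percentiles of 97.7 and 97.4 in males and 76.5 and 88.0 in females.

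Of 18 genes of the thick limb and macula densa, 16 were detected and 9 were bright, with medians of 95.4 and 95.2 in males and 95.6 and 96.4 in females. Umod, Wfdc15b, Slc12a1 (the Na-K-2Cl carrier NKCC2), Cldn10 (a claudin of this segment) and Egf led at mean percentiles of 99.6 to 99.9. The 2 members not detected on any array were Nos1 and Ptgs2, which encode enzymes known from the macula densa. In the distal convoluted and connecting tubule, 16 of 17 genes were detected and 8 were bright. Fxyd2, a Na,K-ATPase subunit, Klk1, a kallikrein, Slc12a3, the thiazide-sensitive NaCl carrier, Kl (klotho) and Pvalb led there, and Calb1 was not detected on any array.

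In the collecting duct, 15 of 16 principal cell genes were detected and 5 were bright, among them Aqp2, the water channel regulated by vasopressin, whose signals were 4696.1 and 4197.3 in males and 4612.2 and 5588.0 in females. Of 17 intercalated cell genes, 14 were detected and 3 were bright. Car12, a membrane carbonic anhydrase, had signals of 11587.7 and 7235.1 in males and 16728.9 and 14772.2 in females, and Slc26a4, the bicarbonate exchanger pendrin, had 6087.2 and 4526.1 in males and 9249.4 and 7445.0 in females. Both genes were lower on both male arrays, and the same order held for 13 of the 17 list members, with 1 in the other direction (25.0% and 21.5% of all named genes). Hepacam2 and Atp6v0d2 were not detected on any array. Thin limb genes were detected in 7 of 8 cases, led by Aqp1, the constitutive water channel of proximal tubule, thin limb and descending vasa recta, at a mean percentile of 99.7.

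Glomerular and interstitial lists were dimmer. Of 20 podocyte genes, 13 were detected and none was bright, with the 4 list medians between percentile 63.7 and 68.5. Its brightest members were Vegfa, Actn4, Podxl, Synpo and Dpp4, which other kidney cells also express, and Nphs1, the slit diaphragm protein nephrin, had signals of 87.0 and 77.3 in males and 85.5 and 70.5 in females and was not detected on any array. Parietal epithelium had 8 of 10 genes detected and 3 bright (Lgals3, Scin and Krt8).

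Of 19 mural, mesangial and renin-lineage genes, 17 were detected and only Acta2, smooth muscle actin, was bright. Ren1, the renin gene of this list, was not measured. The brightest Acta2 probe had signals of 6981.5 and 4585.1 in males and 4757.4 and 5798.6 in females. Its other probes averaged percentiles of 87.2, 85.6, 82.8, 20.5 and 18.8, and those at 20.5 and 18.8 were detected on no array. Agtr1a, the angiotensin receptor, Gata3, Myl9 and Gucy1a1 followed, and Cnn1, a calponin of smooth muscle, was not detected on any array. Of 18 fibroblast genes, 10 were detected, none was bright and 7 were not detected on any array, namely Col1a1, Col1a2, Col3a1, Lum, Dpt, Mfap5 and Meg3. The collagen gene Col1a1 had signals of 75.3 and 79.5 in males and 79.6 and 66.6 in females, below the median probe of each array. The brightest fibroblast-list genes were Nt5e, an ectonucleotidase, at a mean percentile of 93.3, Pi16 at 84.2 and Dcn, the proteoglycan decorin, at 83.0.

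Blood cell lists were checked because CD31 is also carried by leukocytes and platelets. Of 29 macrophage and dendritic genes, 21 were detected and 2 were bright. Cd74, the MHC class II invariant chain, had signals of 9501.0 and 5634.3 in males and 5951.0 and 4185.1 in females. Lyz1 was bright by 1 of its 3 probes, and the other 2 were detected on no array. T and NK cell genes were detected in 13 of 19 cases, B and plasma cell genes in 4 of 12, neutrophil genes in 6 of 13 and platelet genes in 4 of 10. The bright T-cell gene Cd8b1 rested on 1 probe at a mean percentile of 97.0, while its other probes stood at 71.7 and 51.0 and its partner chain Cd8a was not detected on any array. Foxp3, a regulatory T-cell factor, likewise had 1 probe at 90.3, with the other 3 detected on no array.

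Hba-a1, the hemoglobin alpha chain of red cells, had signals of 17381.7 and 18462.5 in males and 6416.7 and 5801.8 in females. The groups did not overlap. Of the 8 erythroid genes measured, 6 were detected and Gata1 was not detected on any array. As a contrast, 6 of 28 genes typical of other organs were detected, none was bright and 18 were not detected on any array, with list medians between 28.5 and 34.4.

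**Figure D3:**
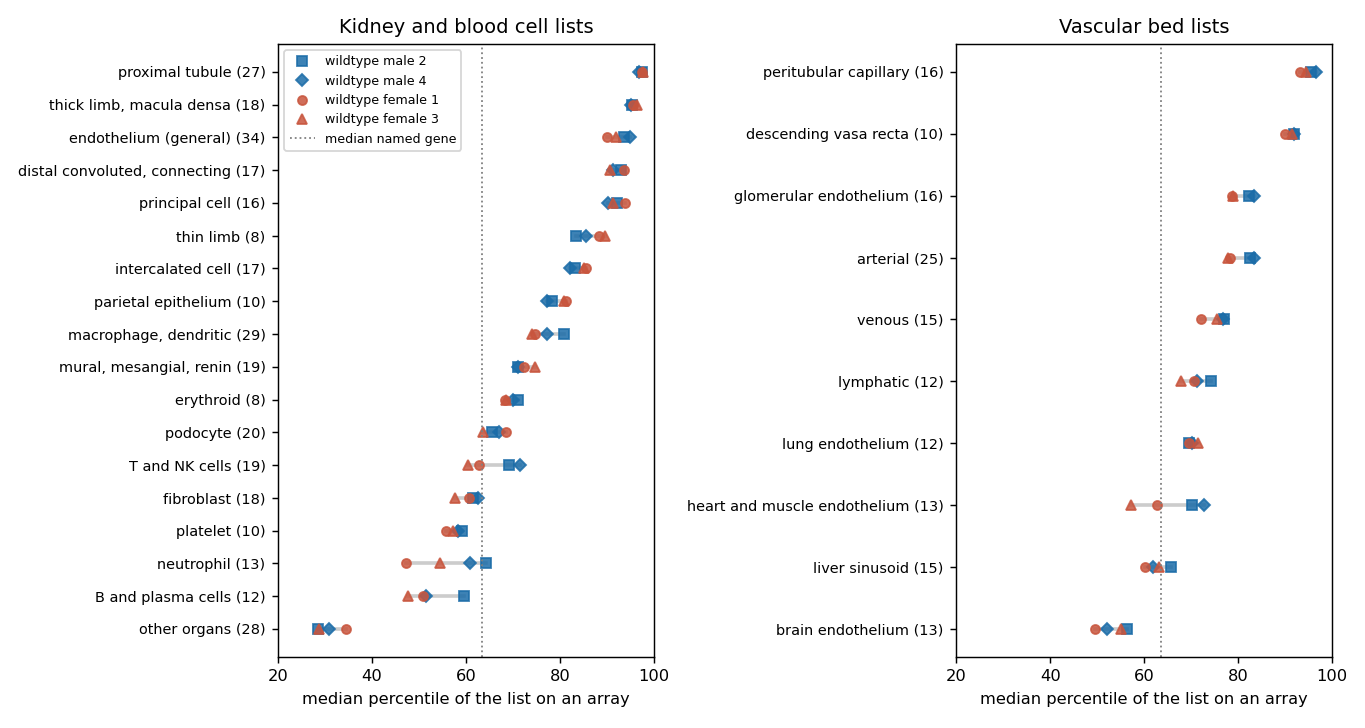
Median percentile of each cell type list (left) and vascular bed list (right) on each wildtype array, with the number of genes measured in brackets, male arrays in blue and female arrays in red. Proximal tubule, thick limb and general endothelium lie at the top left, peritubular capillary and descending vasa recta at the top right, and the dotted line marks the median named gene.

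Among vascular beds, the peritubular capillary list was the brightest by median. Of its 16 genes, 13 were detected, 6 were bright and each was read on at least 1 array, and its median stood at 95.6 and 96.6 in males and 93.2 and 94.4 in females. Igfbp5, an IGF-binding protein, had signals of 38413.4 and 36093.6 in males and 27127.0 and 25354.5 in females. Plvap, the protein of fenestral diaphragms, had 26170.1 and 28408.2 in males and 13027.1 and 12619.8 in females. Esm1, a secreted proteoglycan induced by VEGF, had 13500.0 and 21489.3 in males and 7893.4 and 13280.6 in females. Both male signals lay above both female signals for all 3 genes, although by percentile Esm1 stood at 98.9 on male 2 and at 99.0 on female 3. Cyp4b1 and Vegfa are also on tubule or podocyte lists, so this list is not free of nephron genes.

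Glomerular endothelial genes were detected in 12 of 16 cases and 2 were bright. Lpl, lipoprotein lipase, had signals of 16932.5 and 19540.9 in males and 23399.9 and 17980.6 in females, with overlap of the sexes, and its other probe averaged percentile 30.3. Ehd4, an endocytic trafficking protein, was bright at 97.1, and Mapt, Plat (tissue plasminogen activator) and Fbln2 followed at 93.4, 93.4 and 85.8. Sost, the BMP and Wnt antagonist sclerostin, and Fabp4, a fatty acid binding protein, were not detected on any array.

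Most arterial and venous genes were detected. Of 25 arterial genes, 24 were detected, 1 was bright and Fbln5 was not detected on any array. Nrp1, a VEGF and semaphorin co-receptor, led at a mean percentile of 97.4, followed by Notch4 at 95.2, Cxcl12 at 91.2, Sox17 at 89.2 and the connexin Gja4 at 88.7. Of 15 venous genes, 11 were detected and 2 were bright, Ctsh, a lysosomal protease, and Ephb4, the receptor of the arterial ligand Efnb2. Ephb4 had signals of 4905.2 and 6033.1 in males and 3181.2 and 3636.6 in females. Ackr1, a chemokine receptor of venules, was not detected on any array.

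All 10 genes of the descending vasa recta were detected and 4 were bright, led by Aqp1 and Aldh2, both of which are also strong tubule genes. The urea carrier Slc14a1, which marks this vessel, had signals of 341.1 and 250.9 in males and 501.6 and 418.3 in females. Of 12 lymphatic genes, 7 were detected, none was bright and 1 (Sema3a) was not detected on any array. Pdpn (podoplanin), which podocytes also express, was the brightest at a mean percentile of 90.7.

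Lists for endothelium of other organs were dimmer than the peritubular list in every median. Brain endothelial genes were detected in 5 of 13 cases, liver sinusoidal genes in 8 of 15, lung genes in 8 of 12, and heart and muscle genes in 7 of 13. Their brightest members were Slc2a1, the glucose carrier GLUT1, on the brain list, Fcgr2b, an Fc receptor, on the liver list, Ednrb on the lung list and Aqp1 on the heart and muscle list. Slco1c1, Slc38a5 and the drug pump Abcb1a, all known from the blood-brain barrier, were not detected on any array. Stab2, a hyaluronan scavenger receptor of liver sinusoids, had signals of 227.0 and 148.6 in males and 531.3 and 589.3 in females, the lower values being those of both males.

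The receptor lists varied in the share of members that were detected and in whether any was bright. Among VEGF, angiopoietin and ephrin receptors, 15 of 23 were detected and 5 were bright, namely Flt1, Robo4, Nrp1, Tek (the angiopoietin receptor Tie2) and Ephb4, and Epha5, Epha6 and Ephb6 were among the 4 not detected on any array. Of 18 TGF-beta and BMP receptors and co-receptors, 15 were detected and Tgfbr2, Tgfbr1 and Bmpr2 were bright. Tgfbr2 had signals of 10409.3 and 10359.4 in males and 7018.3 and 7183.4 in females. The endothelial co-receptor Eng followed at a mean percentile of 94.5, and Amhr2 and Acvr1c were not detected on any array.

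Growth factor receptor kinases were detected in 15 of 31 cases with none bright, led by Insr, the insulin receptor, at 93.9, Ddr1, Fgfr2, Igf1r and Egfr. Of 9 Notch receptors and ligands, 7 were detected and none was bright on all 4 arrays. Notch4, the endothelial receptor, had signals of 4460.3 and 4424.2 in males and 2248.0 and 2677.6 in females. Notch1 spread most, with percentiles of 87.1 and 87.8 in males and 78.4 and 80.3 in females.

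Of 28 vasoactive peptide receptors and their partners, 11 were detected, 3 were bright and 11 were not detected on any array. The bright members were Atp6ap2, the prorenin receptor, Ednrb, the endothelin B receptor, and Ramp2, the partner protein of the adrenomedullin receptor. Ednrb had signals of 16092.5 and 16158.2 in males and 6365.8 and 5981.8 in females, and the groups did not overlap. Of 36 receptors for lipids and small molecules, 21 were detected and F2r, the thrombin receptor PAR1, was the bright one, at a mean percentile of 98.8. S1pr1, a sphingosine phosphate receptor known from endothelium, had signals of 70.3 and 63.1 in males and 71.1 and 65.0 in females and was not detected on any array.

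Nuclear receptors were detected in 24 of 39 cases, with 3 bright on all 4 arrays among the leading Hnf4a, Nr1h4 (the bile acid receptor FXR), Esrra, Vdr and Nr2f6. Hnf4a, a factor of the proximal tubule, had signals of 5874.3 and 4687.5 in males and 6702.6 and 5694.5 in females. Of 20 scavenger and endocytic receptors, 15 were detected, and Lrp2 (megalin), Amn and Fcgrt were bright at mean percentiles of 98.8 to 99.1. Lrp2 and Amn act in protein uptake by the proximal tubule.

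Interleukin receptors were detected in 20 of 37 cases, toll-like receptors in 8 of 12, TNF receptors in 8 of 20 and chemokine receptors in 6 of 23, and Tnfrsf21 was the only bright gene among them. Frizzled receptors were detected in 7 of 10 cases and integrins in 17 of 27, with Itgb6, an epithelial integrin, bright. Receptors for GABA, glutamate and acetylcholine were detected in 7 of 53 cases, and the bright one was Grina, a gene named for glutamate receptors but related to the Tmbim family. Of 1078 olfactory receptors, 15 were detected and 977 were not detected on any array. Of 173 vomeronasal receptors, 2 were detected, and of 35 taste receptors none was. These sensory families were among the dimmest groups on the arrays, with list medians between percentile 16.3 and 25.1.

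Carriers were widely detected. Of 327 genes named Slc1 to Slc52, 214 were detected, 34 were bright and 70 were not detected on any array. Slc27a2, Slc34a1, Slc25a5 (the mitochondrial ADP/ATP carrier), Slc47a1 (the apical cation exporter MATE1) and Slc12a1 led. Slc47a1 had signals of 36416.4 and 26121.5 in males and 33857.1 and 26598.8 in females. Both male percentiles lay below both female percentiles for 122 of the 327 genes and above for 51 (25.0% and 21.5% of all named genes). Organic ion carriers of Slc22 were detected in 17 of 21 cases, mitochondrial carriers of Slc25 in 35 of 46, zinc carriers of Slc39 in 10 of 13, and amino acid carriers of Slc7 in 6 of 15.

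Other carrier families differed in how many members were read. Slco carriers were detected in 4 of 14 cases, Slco4a1, Slco2b1, Slco3a1 and Slco2a1, with 8 not detected on any array. ABC transporters were detected in 24 of 48 cases, and Abca3, a lipid transporter, and Abcd3, a peroxisomal one, were bright. Aquaporins were detected in 8 of 11 cases with Aqp1, Aqp2 and Aqp3 bright, and claudins in 15 of 20 with Cldn10 and Cldn2 bright. The Na,K-ATPase and Fxyd family had 9 of 11 genes detected and 4 bright, led by Atp1b1, the pump's beta subunit, with signals of 43012.6 and 33544.3 in males and 45734.1 and 38102.9 in females.

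The V-ATPase, which pumps protons in lysosomes of all cells and at the surface of intercalated cells, had 17 of 20 genes detected and 7 bright. The subunit Atp6v1e1 had signals of 27089.3 and 21702.2 in males and 24337.8 and 24819.8 in females, while Atp6v1e2, Atp6v0a4 and Atp6v0d2 were not detected on any array. Potassium channel genes were detected in 20 of 88 cases, with Kcnj1, the ROMK channel of thick limb and collecting duct, at a mean percentile of 98.4, and 40 were not detected on any array. Sodium channel genes were detected in 5 of 13 cases, led by the epithelial subunits Scnn1g and Scnn1b, Trp channels in 8 of 20 and connexins in 8 of 16.

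**Figure D4:**
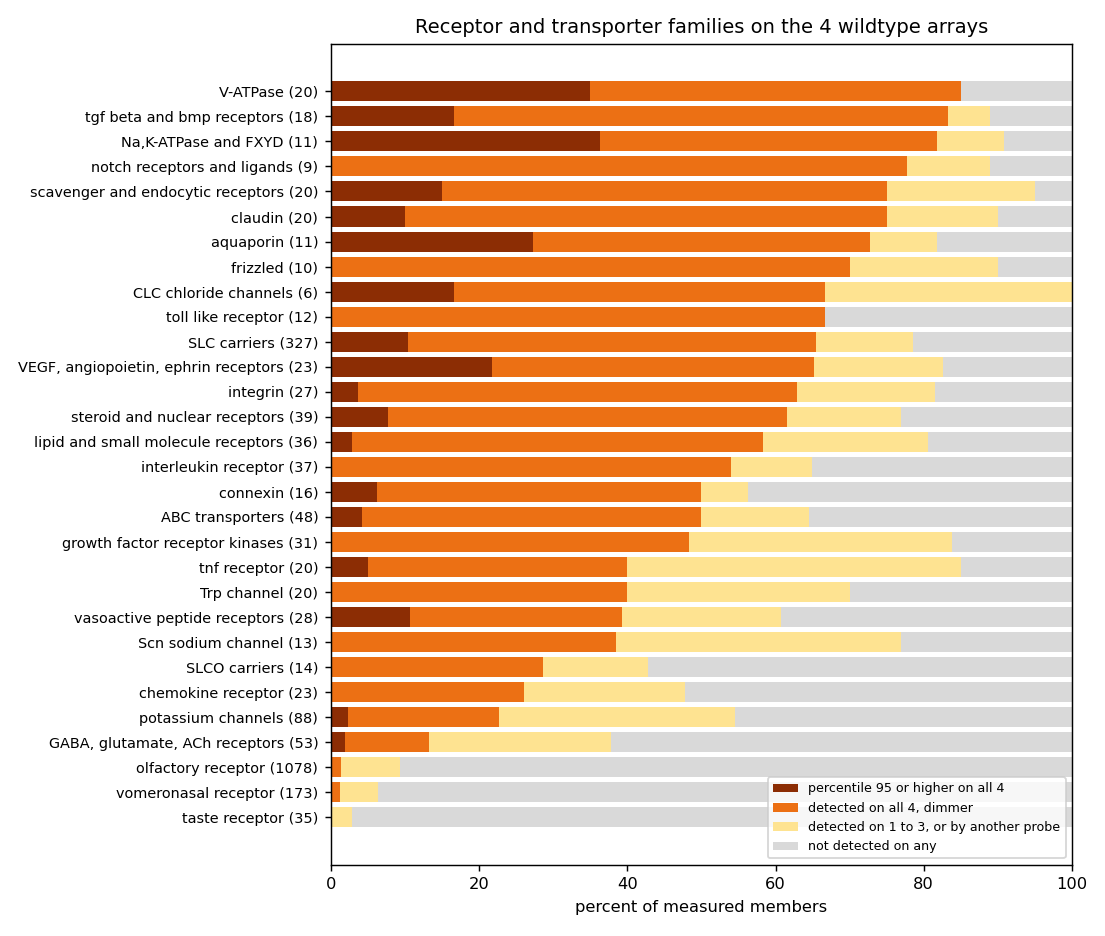
Share of the measured members of each receptor or transporter family (number in brackets) that reached percentile 95 on all 4 wildtype arrays, were detected on all 4 but dimmer, were detected in part, or were not detected on any. V-ATPase genes are at the top with 17 of 20 detected, and olfactory, vomeronasal and taste receptors are at the bottom.

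Over all named genes, the 15 highest by their lowest percentile were Itm2b, Gpx1, Rplp1, Atp5b, Eef1a1, Dbi, Atp5g3, Fth1, Rpl41, Gpx3, Atp5j2, Ndufa13, Uqcr10, Tmbim6 and Umod. Atp5b, Atp5g3, Atp5j2, Ndufa13 and Uqcr10 belong to the respiratory chain or ATP synthase, and Rplp1, Rpl41 and Eef1a1 to translation. Gpx3 is the secreted glutathione peroxidase known to be made by proximal tubule cells, and with Umod it was a kidney-typical gene among these 15. Itm2b, a membrane protein of most cells, had signals of 49153.5 and 46833.0 in males and 49890.4 and 46875.0 in females.

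At the edges of the definitions, the genes just inside detection by their highest p were Folr2, Il1f10 and Oaz3, and those just outside were Cacna1h, Lockd and Hoxd11. Lockd, for example, had detection p-values of at most 0.0506, with signals of 113.2 and 99.2 in males and 106.3 and 117.0 in females. Just inside the brightness limit were Uaca, Snx8 and Irf2, and just outside it were Purb, Polr2g and Ldhd. Ldhd had a lowest percentile of 94.98 and Irf2 one of 95.01.

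The only labelled condition among these arrays is sex, so males were set against females with limma on background-corrected, quantile-normalized log2 signals, adjusting p over all 22039 probes detected on at least 2 arrays. Of these, 185 probes of 140 named genes passed an adjusted p of 0.05 (0.839%), 102 higher (0.463%) and 83 lower (0.377%) in males. By chromosome, 151 of the called probes were autosomal, 9 lay on X and 3 on Y, and 22 had no gene symbol. The share of each chromosome among all tested probes was not computed, so no excess is read from these counts. The smallest p that an exact permutation of 2 against 2 arrays can give is 0.333, so the calls rest on the spread that limma pools across probes. The count fell to 12 without female 1, 23 without female 3, 66 without male 2 and 66 without male 4, and 11 probes passed in all 4 of these fits.

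Xist and Eif2s3y matched the labelled sexes. Xist, the RNA of the inactive X, had log2 signals of 4.35 and 4.32 in males and 10.83 and 10.91 in females and was at least 48.3-fold lower in males, where it was not above background (limma adjusted p = 0.0011). Eif2s3y on Y had log2 signals of 10.63 and 11.12 in males and 4.62 and 4.45 in females, where it was not above background. Uty, also on Y, had log2 signals of 7.40 and 7.24 in males and 5.64 and 5.32 in females and was detected on all 4 arrays. Chst7, a sulfotransferase gene on X, was higher in males by 3.15 on the log2 scale. Such a bound sets the brighter group's mean against the lowest detected signal of the other group's arrays.

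The autosomal genes with the smallest p higher in males were Cyp2j13, Cyp2d9, Acsm3 and Azgp1. Cyp2j13, a P450 epoxygenase-family gene, had log2 signals of 12.45 and 12.28 in males and 5.08 and 4.70 in females and was at least 138-fold higher in males (limma adjusted p = 0.0015). Cyp2d9, a P450 of steroid hydroxylation, had 13.14 and 13.32 in males and 8.10 and 8.46 in females, a log2 difference of 4.95 ± 0.19 (SE). Acsm3, an acyl-CoA synthetase, was higher by 5.76 ± 0.24 (SE). Azgp1, a secreted lipid-mobilizing protein, was at least 192-fold higher in males, but its limma adjusted p was 0.190 when the fit drew its spread from all 8 arrays. Lower in males were Ugt1a2 and Ugt1a5, glucuronosyltransferases whose probes sit in a gene cluster with shared exons. Ugt1a2 had log2 signals of 5.41 and 4.67 in males and 12.92 and 12.62 in females, and Ugt1a5 had 5.69 and 4.88 in males and 12.17 and 11.97 in females. Each was detected on 1 of the 2 male arrays, so the size of the difference rests in part on a signal at background. Igf2, a growth factor, was lower by 3.57 ± 0.26 (SE) on the log2 scale, and its limma adjusted p was 0.0508 in the fit on all 8 arrays. Of the 55 genes that the rule names in this contrast, 48 lost their call without female 1, 46 without female 3, 35 without male 2 and 37 without male 4. With no filter 26 of them lost it, and in the fit on all 8 arrays 15 did.

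Of 30 general endothelial genes tested between the sexes, only Pecam1 passed, by its second probe, with log2 signals of 11.21 and 11.25 in males and 9.92 and 10.01 in females, a difference of 1.27 ± 0.15 (SE, limma adjusted p = 0.0455). The call was lost when any 1 array was left out (adjusted p up to 0.183) and in the fit on all 8 arrays (0.0921). By its brightest probe Pecam1 differed by 0.97 ± 0.19 (adjusted p = 0.0797), Emcn by 0.89 ± 0.19 (0.0970), Egfl7 by 1.27 ± 0.20 (0.0645) and Cdh5 by 1.06 ± 0.20 (0.0795), all limma values on the log2 scale. The median difference was 0.97 over the 30 endothelial genes and 1.10 over 13 peritubular genes, beside -0.04 over all 11781 tested genes. Of those 11781 genes, 140 were called by any probe. In the peritubular list Cyp4b1, Gpihbp1, the lipase anchor of capillaries, and Rgcc passed higher in males, and on other lists Nostrin, which regulates nitric oxide synthase, Ednrb and Tbxa2r did so. Cyp4b1 was called in 2 of the 4 fits that left out 1 array and the other 5 genes in 0 of 4. In the fit on all 8 arrays the limma adjusted p was 0.168 for Rgcc, 0.0520 for Ednrb and 0.0508 for Tbxa2r, all past the threshold of 0.05. Cyp4b1 has a pseudogene copy, Cyp4b1-ps2, that was also called, so which of the pair these probes read is uncertain.

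Other cell lists also differed between the sexes. The median log2 difference was 1.06 over 14 T and NK genes, 0.88 over 6 B and plasma genes and 0.75 over 22 macrophage and dendritic genes. It was 0.75 over 7 neutrophil genes and 0.44 over 7 platelet genes. Nephron lists lay between -0.60 (intercalated) and 0.03 (distal convoluted and connecting). Of the T and NK genes Il7r was called, but its limma adjusted p was 0.266 in the fit on all 8 arrays. Summed signals of the 34 endothelial genes were 151427 and 176986 in males and 81671.7 and 87574.3 in females. The 29 macrophage and dendritic genes summed to 52341.2 and 34913.6 in males and 25873.2 and 22814.0 in females, and 18 of them had both males above both females, with Lyz2 called. The 8 erythroid genes summed to 21873.0 and 22042.0 in males and 12151.8 and 10133.3 in females. Hba-a1 alone supplied most of that sum. Both males lay above both females for 4 of the 8 genes and below for 4. The median difference of the 7 tested was -0.27 on the log2 scale. The list includes Slc4a1, which is also on the intercalated list. The beta globin genes Hbb-bs and Hbb-bt are not on the list and were called higher in males, by 1.57 to 1.76 log2 units. In the fit on all 8 arrays their limma adjusted p was 0.461 to 0.539. Hba-a1 was called at 1.58 ± 0.16 (SE) log2 units higher, but its limma adjusted p was 0.550 in the fit on all 8 arrays, where that of Lyz2 was 0.129, and neither was called when any 1 array was left out. The 17 intercalated genes summed to 34856.9 and 24645.9 in males and 48432.8 and 42635.3 in females, with none called. The sums of the 18 thick limb genes overlapped at 198341 and 192609 in males and 228747 and 193449 in females. By percentile, however, both males lay below both females for 11 of these 18 genes and above for 0 (25.0% and 21.5% of all named genes). Nos1 and Ptgs2 on the thick limb list, Gata1 on the erythroid list and Hepacam2 and Atp6v0d2 on the intercalated list were not detected on any array. The part of any of these lists in the sex difference of the endothelial genes was not tested.

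Proximal tubule genes passed in both directions, where 140 of all 11781 tested genes were called. Of 27 tested, Cyp2e1, Cyp4b1, Slc22a6 and Slc22a30 were higher in males, and Gatm, the first enzyme of creatine synthesis, and Slc5a12, a lactate carrier, were lower. The called probe of Slc22a30 is not the brighter one whose percentiles are given above. It had log2 signals of 6.14 and 6.41 in males and was not detected in females. Slc22a6, the organic anion carrier OAT1, had signals of 17989.3 and 14252.6 in males and 6293.8 and 6352.9 in females and differed by 1.36 ± 0.16 (SE) log2 units (limma adjusted p = 0.0481). Slc5a12 had log2 signals of 12.28 and 12.11 in males and 13.68 and 13.70 in females. Among the Slc genes, Slc7a12, Slc7a7, Slc7a2 and Slc22a19 were also called lower in males, where Slc7a12 was detected on 1 of 2 arrays and Slc7a2 on 0 of 2. In the fit on all 8 arrays the limma adjusted p was 0.0645 for Slc7a7 and 0.142 for Slc22a19, both past 0.05. It was 0.0107 for Slc7a12 and 0.0266 for Slc7a2. No gene of the podocyte, thick limb, distal tubule, principal cell, intercalated, mural, arterial, venous or lymphatic list passed in either direction. In simulated data with this number of arrays, changes of 1 log2 unit were not recovered. That simulation changed 50 probes per size and drew noise independently for each probe, so recovery in the real data may differ.

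**Figure D5:**
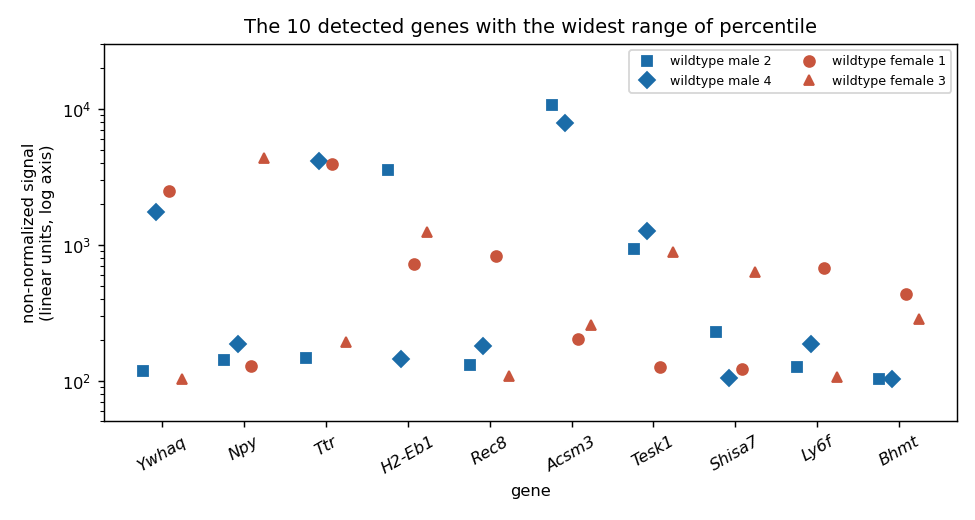
Non-normalized signal (linear units on a log axis) of the 10 genes detected on all 4 wildtype arrays with the widest range of percentile, with 1 point per array, males in blue left of females in red. Acsm3 and Bhmt separate by sex, Ywhaq and Ttr are high on male 4 and female 1, and Npy is high on female 3 alone.

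Differences between arrays were small for most genes. The range of a gene's percentile over the 4 arrays had a median of 2.51 points among detected genes and 0.495 among bright ones. A few genes stood far apart between arrays of the same sex. Ywhaq, a 14-3-3 protein, had signals of 117.2 on male 2 and 1728.4 on male 4, and of 2467.9 on female 1 and 103.2 on female 3. Ttr, the carrier of thyroxine and retinol-binding protein, had 147.1 and 4151.4 in males and 3947.2 and 190.9 in females, so the same pair of arrays was high. H2-Eb1, an MHC class II chain, was low on male 4 alone, with 3557.5 and 143.3 in males and 719.4 and 1229.0 in females.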

How the data were processed

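The authors' deposited table gives a non-normalized intensity for each probe of each array, on a linear scale, with a detection p-value beside it, per the file headers. A second deposited table gives processed values on a log2 scale whose transformation and centring stay unknown; it served as an alternative. No source used here names the scanner software. There were 0 columns that could not be tied to an array. Arrays have no read depth, and their number limits the precision.

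Probes were named from the platform's annotation: 34885 had 1 symbol, 10378 none and 18 several. Of the named probes, 34807 matched the RefSeq gene table (GRCm38.p6) by Entrez number with 0 new names, and 78 stayed under their annotated name. Percentiles, detection and brightness were computed within each of the 4 wildtype arrays (Python 3.11.15, pandas 2.3.3). RefSeq promoter windows of GRCm38.p6 were found by symbol for 15237 of 19057 genes. For males against females, background was corrected through the detection p-values with an offset of 16 and arrays were quantile normalized (neqc, limma 3.58.1, R 4.3.3), and lmFit with eBayes was run with 2 residual and 3.05 prior degrees of freedom. The contrast was tested on simulated data of 22039 probes, where it recovered 0% of changes of 1 log2 unit, 52% of 2, 74% of 3 and 88% of 4, with 4 false calls. The noise was independent between probes, the spreads were shuffled across probes, and 50 probes were changed per size.

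The 62 gene lists and families were written from general knowledge, and the members and lists were chosen with earlier results of these data known. Genes named are the 6 markers, the 5 highest members of each list, its most variable member, up to 6 undetected members, the 15 highest of all genes, and the sex contrast's 15 strongest calls each way with list members that passed. Kdr, S1pr1, Eng, Myct1, Clec14a, Cyp4b1-ps2, Uty and the genes that vary most between arrays were added after their values were seen. Alternatives were another detection limit, the dimmest probe, a lower brightness limit, the processed values, normexp background with median scaling, other filters, a fit on all 8 arrays and leaving out each array.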

Additional observations from a re-analysis of the deposited data

Results flagged for a closer look

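The median percentile of the 14 Slco carriers was 35.9 on male 2, 36.2 on male 4, 29.7 on female 1 and 36.8 on female 3. Female 1 lay apart from the other arrays by 0.868 of the whole range. Of its 14 members, 8 were not detected on any array, so the median falls among probes below the detection limit. In all, 68 sets of 4 values were checked this way, and chance alone sets about 1 in 20 apart.

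Among the 10396 probes without exactly 1 gene symbol, 289 were bright on all 4 arrays and 2487 were detected on all 4. They enter no list, so transcripts they read are not described here.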

How the results depend on the processing

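Where each gene was represented by its dimmest probe, the number of detected genes was 6617 in place of 10454 and that of bright genes 733 in place of 1402. The median percentile was then 78.2 in place of 92.6 for the general endothelial list, 88.9 in place of 97.4 for the proximal tubule list and 73.7 in place of 95.7 for the thick limb list. A brightness limit at percentile 90 gave 2807 bright genes, which follows from its construction. A detection limit of 0.01 and leaving out any array moved these counts by less than 1.5 times. The authors' processed values gave the same number of bright genes and identical medians for these lists. They rank these probes alike within an array, so they are no separate check of brightness. Detection was not recounted with them.

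The 185 probes that differed between wildtype males and females became 606 with the authors' processed values, 316 with normexp background and median scaling together, 693 over probes detected on all 4 arrays, 312 in the fit on all 8 arrays and 43 with no filter. Without 1 array the count ran from 12 to 66. Of the 185 probes, 155 were also called with the processed values, 185 with normexp background and median scaling, 136 over probes detected on all 4 arrays, 128 in the fit on all 8 arrays, 43 with no filter and 12 to 38 without 1 array. The cause was not tested, except that fewer arrays or more probes tested are part of those settings. At an unadjusted p under 0.05 there were 4343 probes. No paired analysis was possible because the males carry numbers 2 and 4 and the females 1 and 3, so the sexes share no number. Signals near the detection limit have no firm order, and those near the top of the scale were not checked for saturation.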

Other observations

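Beta-defensins, secreted antimicrobial peptides, held 2 bright genes in a family that was otherwise dim: of 42 measured, 7 were detected and 28 were not detected on any array. Defb1, known from distal nephron epithelium, had signals of 9917.0 on male 2 and 4770.8 on male 4, and of 4520.1 on female 1 and 3485.9 on female 3. Defb29 had 4624.5 and 5511.5 in males and 3533.3 and 3034.1 in females. The other probe of Defb1 averaged percentile 18.2 and that of Defb29 94.7.

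Of 81 cytochrome P450 genes, 29 were detected, 4 were bright and 38 were not detected on any array. Cyp2e1, Cyp2a5, Cyp4b1 and Cyp2j11 led at mean percentiles of 98.3 to 99.1. Of 45 keratins, 9 were detected and Krt8, of simple epithelia, was bright, while 38 of 42 keratin-associated genes of hair were not detected on any array. Crim1, the gene altered in the mutants that are not described here, had signals of 289.7 and 180.0 in wildtype males and 323.2 and 304.6 in wildtype females by its brightest probe, and was detected on all 4 arrays.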
